A study of Homo sapiens with 6 samples.

Results

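The mitochondrial ribosomal protein genes were followed across 2 human lymphoma cell lines and 3 drug states. They were taken by name, as every gene whose symbol is MRPL or MRPS, then a number and at most 1 letter, which found 76 of the 23844 genes in the tables: 47 MRPL genes, named for the large subunit, and 29 MRPS genes, named for the small subunit. The lines were DAUDI, from Burkitt lymphoma, and DOHH2, from follicular lymphoma. Each line gave 1 library labelled WT, 1 from cells resistant to idelalisib, an inhibitor of phosphoinositide 3-kinase delta, and 1 from cells resistant to ibrutinib, an inhibitor of Bruton's tyrosine kinase, so that every group is 1 library. The labels used here do not say how resistance was raised, at what dose, for how long, or whether a resistant line is 1 clone.

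The mitochondrial ribosome makes the small set of inner-membrane proteins that mitochondrial DNA encodes, all of them subunits of the respiratory chain and the ATP synthase. Its RNAs come from mitochondrial DNA, whereas all of its proteins are encoded in the nucleus, made in the cytosol and imported. Some of these proteins descend from the bacterial ribosome (45 of the 76 genes as grouped here) and others were added in mitochondria (30 genes). Lymphoma cells that rely on respiration are known to depend on this machinery. MRPS18A and MRPS30 carry small-subunit names although their proteins sit in the large subunit, and the protein of MRPS36 has since been assigned to the oxoglutarate dehydrogenase complex. All 3 were kept, since the genes were chosen by name.

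Promoters of 4 genes are shown first, because these genes differed most between the libraries labelled WT and the resistant libraries: MRPL48, MRPS33 and MRPL45 were higher in the resistant libraries and MRPL44 was lower. MRPS33 has a second annotated start downstream, not shown. The sequences are RefSeq's, build GRCh38.p14, in the direction of transcription, from 200 bases before to 30 bases after the annotated start. MRPL48 lies at chr11:73787674-73787903 on the plus strand, MRPS33 at chr7:141014923-141015152 on the minus strand, MRPL45 at chr17:38296968-38297197 on the plus strand and MRPL44 at chr2:223957263-223957492 on the plus strand. Capitals mark the letters of 4 searched motifs on either strand: CCGGAAG of ETS factors, AAGATGG of YY1, GCATGCGC of NRF1 and CACGTG, the E-box bound by MYC and its partners. No motif of the 4 contains another.
MRPL48: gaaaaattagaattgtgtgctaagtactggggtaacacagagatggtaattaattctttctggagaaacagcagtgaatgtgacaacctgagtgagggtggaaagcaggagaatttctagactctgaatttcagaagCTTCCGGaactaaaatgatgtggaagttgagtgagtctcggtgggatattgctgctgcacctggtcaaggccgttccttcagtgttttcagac
MRPS33: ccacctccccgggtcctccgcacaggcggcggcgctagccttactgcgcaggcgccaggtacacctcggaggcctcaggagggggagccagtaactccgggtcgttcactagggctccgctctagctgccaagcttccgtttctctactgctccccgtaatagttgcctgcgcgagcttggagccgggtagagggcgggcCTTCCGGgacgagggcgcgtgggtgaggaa
MRPL45: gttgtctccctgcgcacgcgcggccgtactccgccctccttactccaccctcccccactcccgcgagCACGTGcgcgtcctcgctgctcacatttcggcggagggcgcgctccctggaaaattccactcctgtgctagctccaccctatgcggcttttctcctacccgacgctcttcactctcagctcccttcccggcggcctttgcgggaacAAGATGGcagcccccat
MRPL44: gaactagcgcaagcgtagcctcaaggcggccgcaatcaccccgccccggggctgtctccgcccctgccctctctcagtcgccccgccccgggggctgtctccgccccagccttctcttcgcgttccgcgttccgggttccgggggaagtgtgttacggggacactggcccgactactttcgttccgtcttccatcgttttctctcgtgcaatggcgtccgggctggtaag

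The capitals are the reverse complement of the ETS letters in MRPL48 and in MRPS33, and the E-box and then the YY1 letters in MRPL45. The window of MRPL44 held none of the 4. Promoters of 250 bases before to 50 after the start were found for 67 of the 76 genes, all but MRPL2, MRPL10, MRPL13, MRPL15, MRPL21, MRPL23, MRPL35, MRPS28 and MRPS36. The ETS letters were in 29 of the 67 (43.3%) and in 12.2% of the 27305 genes of the promoter table. The YY1 letters were in 24 (35.8%), against 7.11% of all genes. The NRF1 letters were in 6 (8.96%), against 3.68%, and the E-box in 9 (13.4%), against 8.77%. These are matches of letters in a fixed window, not binding sites, and the table of all genes also holds genes that make no protein.

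The libraries labelled WT did not group with their own lines. Over the 76 genes the log2(FPKM + 1) values of the 2 libraries labelled WT correlated with each other at r = 0.985, whereas each correlated with the resistant libraries at 0.773 to 0.845 and the resistant libraries of DAUDI with those of DOHH2 at 0.847 to 0.882 (across genes, which are not independent). The 2 resistant libraries of a line correlated at 0.960 in DAUDI and 0.987 in DOHH2. A difference between a resistant library and the library labelled WT can therefore not be told apart from a difference between cells of another origin, and the text writes "labelled WT" throughout. All 7 B cell markers checked were at 1 FPKM or more in every library, with summed values of 1647 to 4102 FPKM. The 5 myeloid markers summed to 0.134 and 0.3003 FPKM in the libraries labelled WT and to 9.44 to 29.2 in the resistant ones. In resistant DOHH2 most of it was CD33, with CD14, CSF1R and MPO at 0. In resistant DAUDI most was CD33 (2.29 and 10.6 FPKM) and CSF1R (5.73 and 2.20). The 3 erythroid markers summed to 5.46 FPKM in DOHH2 labelled WT and to 0.109 or less in the other libraries. The part of these markers in the results below was not tested. Relative depth, with DAUDI labelled WT as 1, was 1.42 in DAUDI ibrutinib and 0.936 to 1.04 in the other libraries.

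All 76 genes were transcribed in every library, at 1 FPKM or more (FPKM are fragments scaled to transcript length and library size, so that genes can be compared), and 72 were at 5 FPKM or more throughout. The highest mean levels belonged to MRPL51 (86.8 FPKM), MRPS24 (58.9), MRPS33 (56.6), MRPL37 (56.1) and MRPL20 (53.3). The lowest belonged to MRPS18C (3.86), MRPL22 (5.48), MRPS36 (5.51), MRPL19 (7.16) and MRPL17 (7.73). For each gene the highest value was divided by the lowest over the 6 libraries. This had a median of 1.64 over the genes, and 60 of the 76 stayed under 2. The same was not counted over all genes, so whether this is a small variation is not known.

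The summed level of the 76 genes was higher in every resistant library than in either library labelled WT. It was 1876 FPKM in DAUDI labelled WT, 2196 in its idelalisib-resistant library and 2142 in its ibrutinib-resistant library. In DOHH2 the sums were 1840, 2297 and 2140 FPKM in the same order. As a share of all FPKM this was 0.529% and 0.483% in the libraries labelled WT, and 0.555% to 0.588% in the resistant ones. The median level of the 76 genes was 22.3, 26.2 and 23.6 FPKM in DAUDI and 22.7, 24.2 and 22.6 in DOHH2. In DOHH2 ibrutinib the median level was therefore not above that of DOHH2 labelled WT, although the sum was. The large-subunit genes summed to 1151 and 1118 FPKM in the libraries labelled WT and to 1257 to 1376 in the resistant ones. The small-subunit genes summed to 725 and 722 FPKM in the libraries labelled WT, to 820 and 782 in resistant DAUDI, and to 939 and 883 in resistant DOHH2. Their share of all FPKM was 0.204%, 0.220% and 0.202% in DAUDI (labelled WT, idelalisib, ibrutinib) and 0.190%, 0.239% and 0.231% in DOHH2. By share they were thus not higher in DAUDI ibrutinib than in DAUDI labelled WT.

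**Figure D1:**
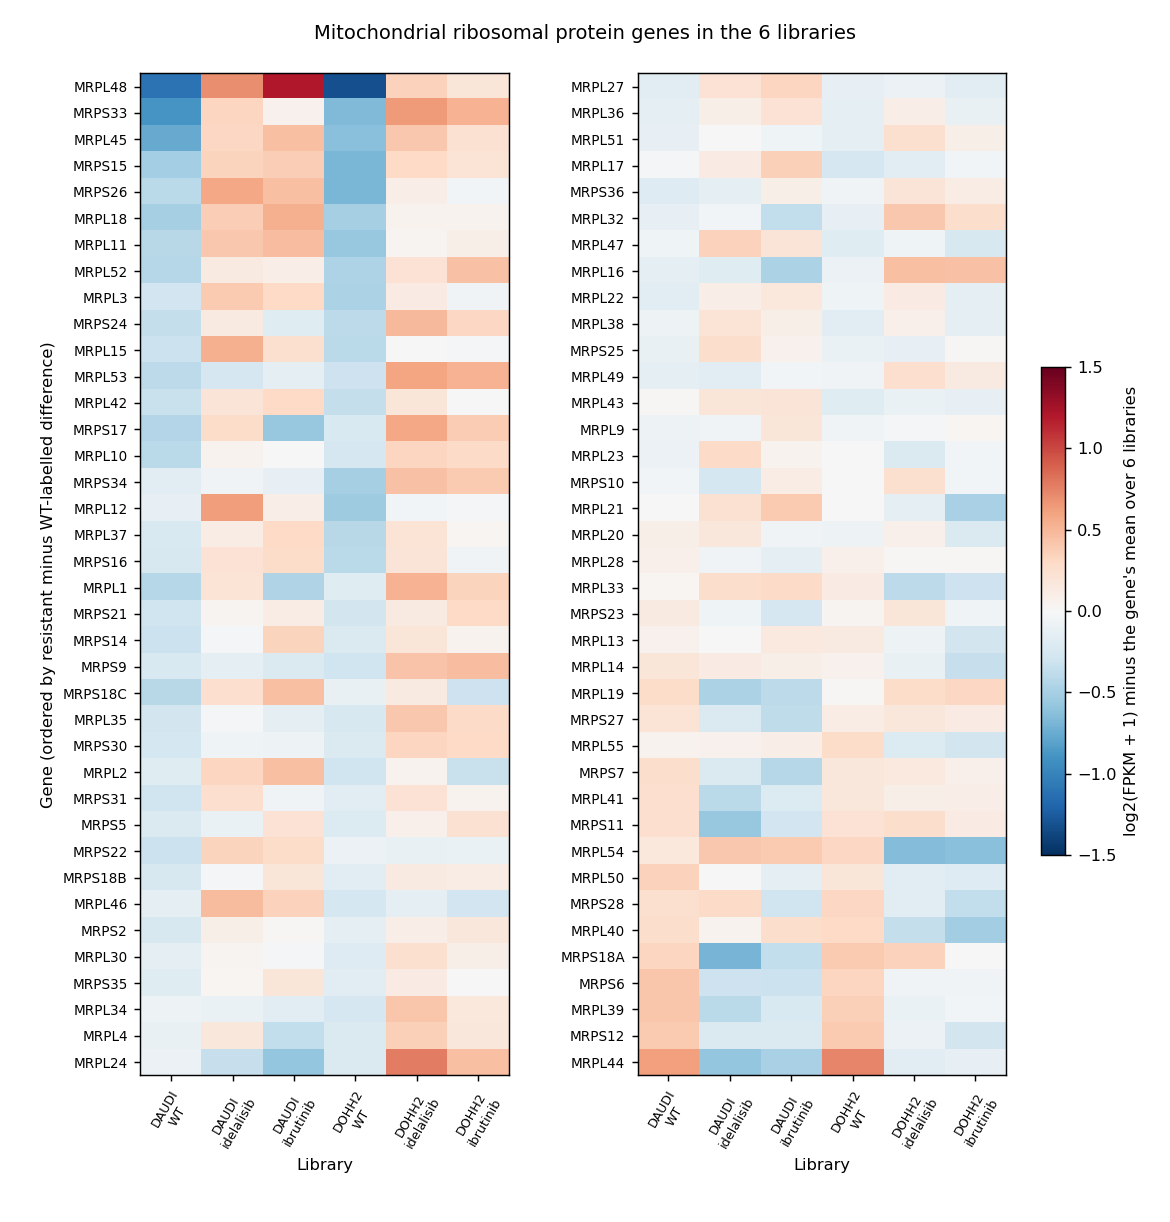
Each row is 1 of the 76 genes, ordered by the difference between resistant and WT-labelled libraries (left column first), and each column 1 library; the colour is log2(FPKM + 1) minus the gene's mean over the 6 libraries. The 2 columns labelled WT look alike, the top rows are blue there and red in the resistant libraries, and the last row, MRPL44, is the reverse.

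In a model over all 6 libraries that took the 2 lines as replicates of a state, 9 of the 76 genes rose and 2 fell in the resistant libraries against the libraries labelled WT (limma, two-sided, Benjamini-Hochberg over 12337 genes, adjusted p under 0.05). Of all 12337 genes 14.2% rose and 13.1% fell, so 11.8% and 2.63% of the ribosomal protein genes is no more than the background. All genes include many at low levels. Of the 5544 genes at 5 FPKM or more in every library, 12.5% rose and 7.79% fell. The median difference was 0.22 on the log2(FPKM + 1) scale for the 76 genes and 0.12 for all genes, with 55 of the 76 above 0. Of the genes that rose, 6 were large-subunit genes (of 47) and 3 small-subunit genes (of 29), and 1 of each fell. By descent 4 of 45 genes with a bacterial homologue rose and 1 fell, against 5 and 1 of the 30 mitochondria-specific genes. At an unadjusted p under 0.05 there were 22 of the 76 (28.9%), against 42.9% of all genes and 36.7% of the 5544.

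MRPL48, a mitochondria-specific protein of the large subunit, had the largest difference. Its gene (hg19 chr11:73498917-73575656) stood at 17.8 FPKM in DAUDI labelled WT, 64.3 in the idelalisib-resistant and 91.9 in the ibrutinib-resistant library, and at 15.1, 50.3 and 44.8 in DOHH2. The lowest resistant value was above the highest value labelled WT, and the resistant DAUDI values were the highest. The difference was 1.82 (SE 0.22, 95% interval 1.20 to 2.44, limma adjusted p = 0.0131).

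MRPS33, a small-subunit protein with no bacterial counterpart, was at 28.0, 65.7 and 54.9 FPKM in DAUDI (labelled WT, idelalisib, ibrutinib) and at 32.9, 82.3 and 75.6 in DOHH2 (hg19 chr7:140705961-140714781). The groups did not overlap, and the resistant DOHH2 libraries were the highest. The difference was 1.16 (SE 0.13, limma adjusted p = 0.0113). MRPL45, related to the inner-membrane proteins that hold the ribosome to the membrane (hg19 chr17:36452989-36479101), was at 20.1, 43.1 and 47.7 FPKM in DAUDI and 22.1, 46.2 and 40.6 in DOHH2. All 4 resistant libraries lay close together, and the difference was 1.04 (SE 0.15, limma adjusted p = 0.0177). Its annotated pseudogene MRPL45P2 was listed at 2.01 and 2.22 FPKM in the libraries labelled WT and 3.52 to 6.45 in the resistant ones, and how reads were split between the pair is not known, which leaves the value of MRPL45 uncertain.

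MRPS15, the counterpart of a bacterial protein that binds the central domain of the small-subunit RNA (hg19 chr1:36921362-36930040), was at 29.4, 53.7 and 54.9 FPKM in DAUDI and 25.9, 52.4 and 49.1 in DOHH2. The 4 resistant values again did not overlap with those labelled WT, and the difference was 0.90 (SE 0.13, limma adjusted p = 0.0166). The other genes that rose were MRPS26, a mitochondria-specific small-subunit protein (difference 0.82, limma adjusted p = 0.0271), MRPL18 (0.75, 0.0433), MRPL11 of the stalk base (0.74, 0.0334), MRPL52 (0.67, 0.0476) and MRPL3, a core large-subunit protein (0.57, 0.0440).

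MRPL44, a large-subunit protein with a fold like that of RNase III (hg19 chr2:224822121-224832431), fell. The library labelled WT was at 28.8 FPKM in DAUDI, against 12.03 with idelalisib and 12.9 with ibrutinib resistance, and DOHH2 gave 31.4, 16.3 and 16.9. Every resistant value was below both values labelled WT, and the difference was -1.01 (SE 0.15, limma adjusted p = 0.0179). MRPS12, the counterpart of a bacterial protein of the decoding centre (hg19 chr19:39421348-39423659), was at 31.1, 20.2 and 20.1 FPKM in DAUDI and 31.3, 22.1 and 19.3 in DOHH2. Its difference was -0.59 (SE 0.13, limma adjusted p = 0.0449). MRPL39 (difference -0.58, limma adjusted p = 0.0590) and MRPL10 (0.50, 0.0603) were just outside the threshold, and MRPL52 just inside it.

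**Figure D2:**
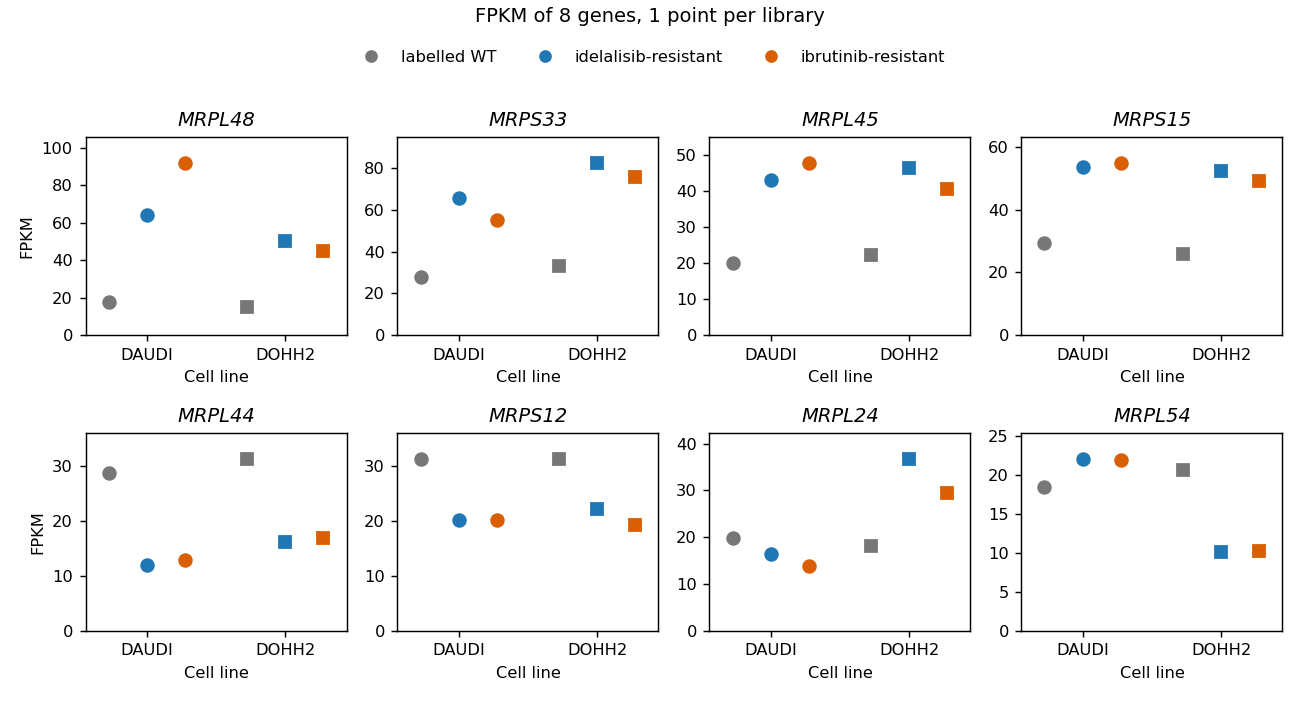
FPKM (vertical axes, from 0) of 8 genes, 1 point per library, circles for DAUDI and squares for DOHH2, coloured by state. The 4 upper genes are higher in all 4 resistant libraries, MRPL44 and MRPS12 are lower there, and MRPL24 and MRPL54 separate resistant DOHH2 from resistant DAUDI.

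These calls rest on few libraries. The model has 2 residual degrees of freedom. The 11 calls became 4 without DAUDI labelled WT, 7 without DOHH2 labelled WT, 1 without DOHH2 ibrutinib, and 0 without DAUDI idelalisib, DAUDI ibrutinib or DOHH2 idelalisib. Over all genes the share called, 27.3% with every library, was 0% to 2.50% in the 4 fits that left out a resistant library. No named gene changed direction in these fits. Scaling by median of ratios in place of the deposited FPKM moved the median of all genes from 0.12 to -0.02 and that of the 76 genes from 0.22 to 0.06, left the gap between the medians at 0.09 against 0.10, and gave 6 genes higher and 4 lower. Under that scaling 43.4% of the calls over all genes were higher, against 52.0% before.

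The order of the 4 resistant libraries around the 2 labelled WT was counted with no test. In 32 of the 76 genes (42.1%) all 4 resistant values lay above both values labelled WT, as in 33.3% of all genes, and in 9 (11.8%) all lay below, as in 25.5% of all genes. Of the 32, 17 were MRPL and 15 MRPS genes. The 9 were MRPL28, MRPL39, MRPL40, MRPL41, MRPL44, MRPL50, MRPS6, MRPS7 and MRPS12. Of these MRPS6 was at 68.9, 41.0 and 41.0 FPKM in DAUDI and 64.3, 49.6 and 49.3 in DOHH2, while MRPL28, at 28.0 to 32.8 FPKM, barely differed.

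Taking the mean of the 2 resistant libraries of each line against its own library labelled WT, 46 genes were above 0 in both lines, 13 below in both, 8 above in DAUDI and below in DOHH2, and 9 the reverse. Over all genes the shares were 41.5% above in both and 32.4% below in both, against 60.5% and 17.1% of the 76. In 9 genes the difference was 0.5 or more in both lines, and in 2, MRPL44 and MRPS12, -0.5 or less in both. These are 11.8% and 2.63% of the 76, against 19.6% and 16.5% of all genes. No gene lay 0.5 or more above in both resistant libraries of a line and 0.5 or more below in both of the other.

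**Figure D3:**
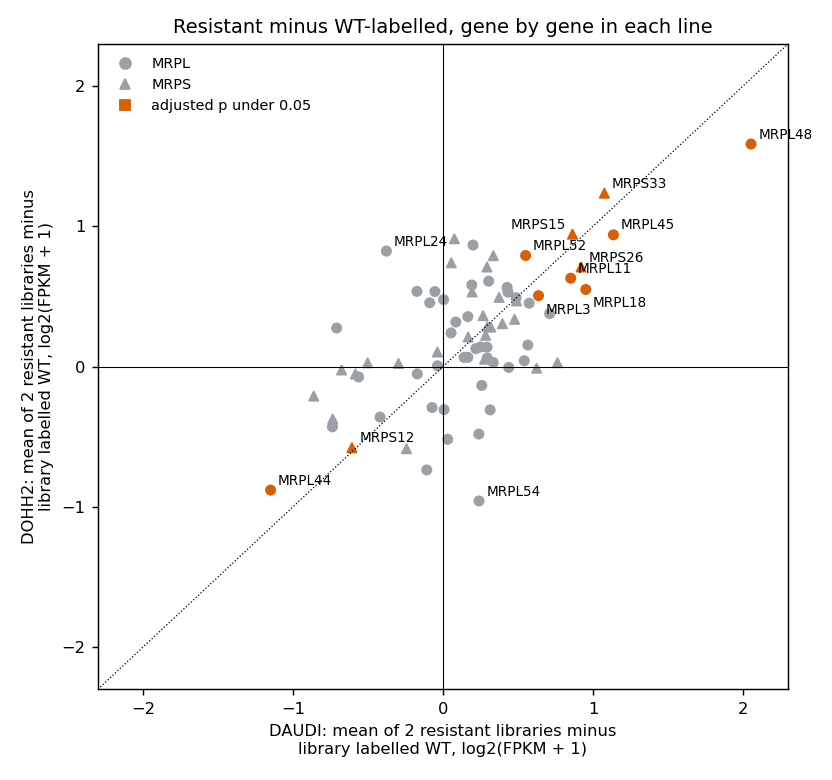
Each point is 1 gene; the horizontal axis is the mean of the 2 resistant DAUDI libraries minus DAUDI labelled WT and the vertical axis the same for DOHH2, both in log2(FPKM + 1), with circles for MRPL and triangles for MRPS genes. Orange marks the 11 genes that passed the limma test, 9 in the upper right and 2 in the lower left, and MRPL24 and MRPL54 lie off the dotted line of equal differences.

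In single comparisons of a resistant library with the library labelled WT of its line, a difference of 1 or more was counted, with no test, since each group is 1 library. Both drugs in a line share that library. In DAUDI idelalisib 3 of the 76 genes were higher (15.3% of all genes) and 2 lower (15.8% of all genes). In DAUDI ibrutinib 3 were higher (20.2% of all) and 1 lower (14.6% of all). In DOHH2 idelalisib 3 were higher (16% of all) and none lower (15.7% of all). In DOHH2 ibrutinib 2 were higher (14.9% of all) and none lower (15.7% of all). Of the 5544 genes at 5 FPKM or more in every library, 8.55% to 14.2% were higher and 6.46% to 7.77% lower.

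Few ribosomal protein genes thus passed this size in any comparison, and the genes that did were 6 in all. MRPL48 differed by 1.80 and 2.31 in DAUDI (idelalisib, ibrutinib) and by 1.67 and 1.51 in DOHH2, and MRPS33 by 1.20, 0.95, 1.30 and 1.18 in the same order. MRPL45 passed in 3 of the 4 and MRPL18 in DAUDI ibrutinib alone (1.03). The lower ones were MRPL44 in DAUDI (-1.20 and -1.10) and MRPS18A in DAUDI idelalisib (-1.02). MRPS18A was at 24.9, 11.8 and 15.0 FPKM in DAUDI and 26.1, 25.4 and 19.8 in DOHH2. The median absolute difference of the 76 genes was 0.34, 0.38, 0.40 and 0.38, against 0.60, 0.67, 0.60 and 0.58 over all genes. Over the 5544 genes at 5 FPKM or more in every library it was 0.43, 0.48, 0.43 and 0.42, a narrower gap.

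The median difference over the 76 genes was 0.22 and 0.19 in DAUDI (idelalisib, ibrutinib) and 0.27 and 0.19 in DOHH2, beside 0.05, 0.18, 0.08 and 0.03 over all genes. In DAUDI ibrutinib, where all genes shifted as well, scaling by median of ratios brought the median of all genes to -0.02 and that of the 76 to -0.06, and the share of all-gene calls that were higher from 58.1% to 47.0%.

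Between the 2 drugs no gene of the 76 passed. In a limma contrast of ibrutinib against idelalisib over both lines no ribosomal protein gene passed, none had an unadjusted p under 0.05, and 0.00811% of all genes (1 gene) passed. The estimates ran from -0.52 (MRPS17) to 0.23 (MRPS5). Over the 76 genes the lowest bound of a 95% interval was -1.32 and the highest 1.05. These bounds are extremes of single genes, and the median SE was 0.19. For each gene, differences inside its own interval cannot be told from 0 here. Within DAUDI none of the 76 differed by 1 or more between ibrutinib and idelalisib, as 2.2% of all genes were higher and 1.31% lower. The nearest were MRPS17 (-0.84) and MRPL1 (-0.65) among the lower, and MRPL48 (0.51) among the higher. Within DOHH2 none did either, against 0.665% higher and 0.413% lower of all genes, and 58 of the 76 were not above 0, with a median of -0.12 beside -0.02 over all genes. The lowest was MRPS18C (-0.45), which was at 4.23 and 2.83 FPKM.

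The 2 libraries labelled WT differed by 1 or more in none of the 76 genes, with 0.608% of all genes higher and 0.486% lower in DOHH2. The largest difference was MRPL12, a protein of the ribosomal stalk (-0.41).

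Between the lines, resistant DOHH2 was compared with resistant DAUDI, with the 2 drugs as replicates of a line. One gene was higher and 1 lower at a limma adjusted p under 0.05, against 7.04% and 8.48% of all genes. At an unadjusted p under 0.05 there were 16 (21.1%), against 35.97% of all genes. Of the 5544 genes at 5 FPKM or more in every library 3.05% were higher and 2.83% lower, and 25.9% had an unadjusted p under 0.05. MRPL24, the counterpart of a bacterial protein placed near the tunnel exit (hg19 chr1:156707094-156710923), was at 16.4 and 13.8 FPKM in resistant DAUDI and 36.8 and 29.4 in resistant DOHH2, beside 19.9 and 18.1 in the libraries labelled WT. The difference was 1.08 (SE 0.13, limma adjusted p = 0.0344). MRPL54, a mitochondria-specific large-subunit protein (hg19 chr19:3762665-3767563), was at 22.1 and 21.9 FPKM in resistant DAUDI, and at 10.1 and 10.2 in resistant DOHH2, beside 18.5 and 20.7 in the libraries labelled WT. Its difference was -1.05 (SE 0.14, limma adjusted p = 0.0410).

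This fit has 1 residual degree of freedom, and in data simulated with its own spreads more of its calls were false than the threshold allows. With spreads drawn from the distribution that limma estimated, it recovered 0% of the genes changed by 1 or by 3. The MRPL24 and MRPL54 calls were both lost when genes with low values were kept, a fit that called no gene at all. Just outside were MRPL53 (0.75, limma adjusted p = 0.0581) and MRPL16 (0.77, 0.0658), both at their highest in resistant DOHH2. By order alone, both resistant DOHH2 values lay above both resistant DAUDI values in 32 of the 76 genes (31.5% of all genes) and below in 29 (39% of all genes). The 32 held 17 MRPL and 15 MRPS genes, and the 29 held 23 MRPL and 6 MRPS genes.

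Isoforms were compared as shares of a gene's FPKM, for genes at 10 FPKM or more, with no test. These shares are Cufflinks estimates, which split reads shared by isoforms. MRPL33, a bacterial-type large-subunit protein, has a 518-nucleotide and a 411-nucleotide isoform. The longer was at 41.5, 48.8 and 49.6 FPKM in DAUDI and 44.3, 21.6 and 20.8 in DOHH2. The shorter was listed at or near 0 in all 3 DAUDI libraries and in DOHH2 labelled WT, and at 8.94 and 11.6 FPKM in resistant DOHH2, where it held 29.2% and 35.8% of the gene.

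MRPL43, a mitochondria-specific large-subunit protein, had isoform shares that differed in opposite directions in the lines. Its 1016-nucleotide isoform held 53.6% of the gene in DAUDI labelled WT and 31.5% and 33.4% in the resistant DAUDI libraries. In DOHH2 it held 52.5% in the library labelled WT and 88.0% and 92.1% in the resistant ones, while the 767-nucleotide isoform went from 27.9% to 4.7% and 4.5%. The gene's total stayed between 22.7 and 29.7 FPKM. The 746-nucleotide isoform of MRPS33 was at 4.85, 5.85 and 4.21 FPKM in DAUDI and 7.09, 30.6 and 24.7 in DOHH2, so that the higher MRPS33 level came with more of both isoforms in DOHH2 and of the 688-nucleotide one in DAUDI. Shares differed by 20 points or more in 1 and 2 genes in DAUDI and in 3 and 2 in DOHH2 (idelalisib, ibrutinib), of 22 compared in each. They did so in no gene between the drugs of a line, and in 1 of 22, MRPL24, between the libraries labelled WT. The same count was not made over all genes, so whether these counts are unusual is not known.

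**Figure D4:**
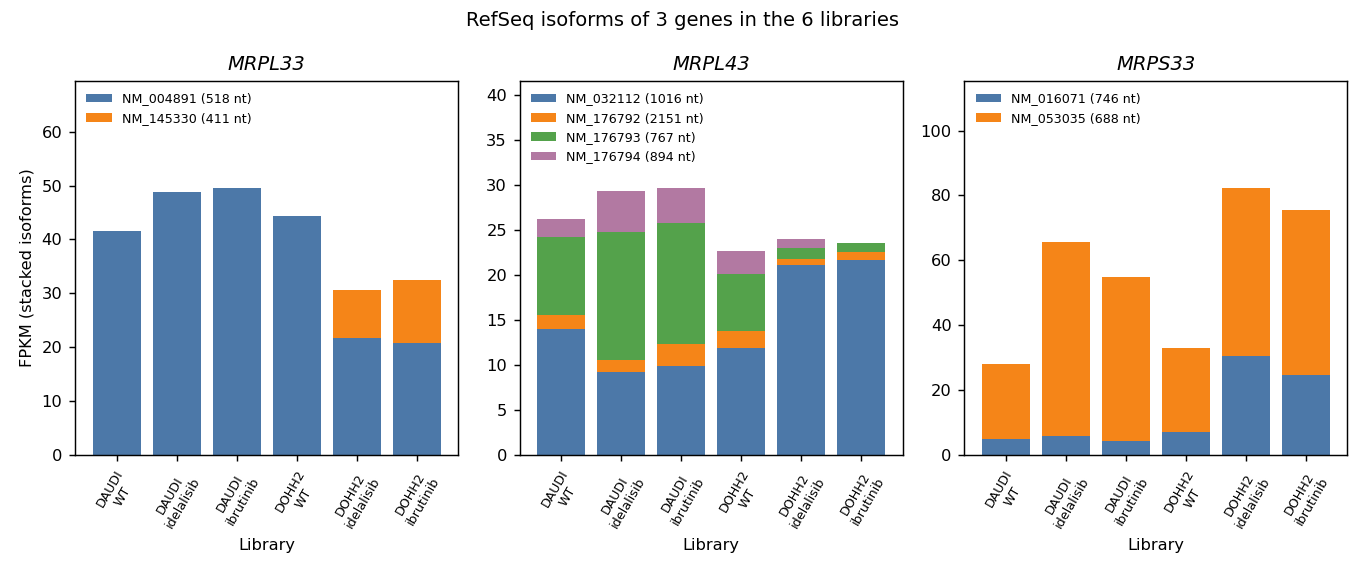
Stacked bars give the FPKM of each RefSeq isoform of MRPL33, MRPL43 and MRPS33 in the 6 libraries. The 411-nucleotide isoform of MRPL33 shows only in the 2 resistant DOHH2 libraries, and the 1016-nucleotide isoform of MRPL43 fills most of the bar there.

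The other genes of mitochondrial translation, in the same contrast of resistant libraries with those labelled WT, are counted against the 14.2% of all genes that rose and the 13.1% that fell. No list below stands apart from these shares by a test, since none was made. Of 17 translation factors 3 rose and 2 fell (17.6% and 11.8%): RMND1, which holds the ribosome in place (difference 1.13, limma adjusted p = 0.016), the peptide deformylase PDF and the release factor MTRF1L rose, and the elongation factor GFM1 (-0.86, 0.025) and the recycling factor GFM2 fell. Of 27 assembly and RNA-modification genes 3 rose (11.1%), C6orf203 (1.33, limma adjusted p = 0.012), RPUSD4 (0.85) and C1QBP (0.74), and 1, TRUB2, fell (3.70%; difference -0.67). Among the mitochondrial aminoacyl-tRNA synthetases reported here RARS2 and HARS2 rose and VARS2 fell (-0.61).

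None of the 8 genes listed as ribosomal proteins under other names passed (median 0.08). The 8 include OXA1L, an insertion factor that is also 1 of the 14 insertion and quality-control genes below. OXA1L (difference 0.47) was the only 1 of the 8 at an unadjusted limma p under 0.05. Of 9 genes of mitochondrial DNA transcription and upkeep POLG, the DNA polymerase, fell (-0.71). Among 9 regulators of mitochondrial biogenesis MYC alone passed, and it rose (0.96, limma adjusted p = 0.033). MYC was at 66.7 and 79.1 FPKM in the libraries labelled WT and at 117 to 192 in the resistant ones. All 9 were above 0 in this contrast, as were 55.8% of all genes. For PPARGC1A, 1 of the 9, this was fixed in advance. It was at 0 FPKM in both libraries labelled WT and was kept only through DOHH2 ibrutinib (2.23 FPKM). In DOHH2 ibrutinib against DOHH2 labelled WT 2 of the 9 were below 0. Of 14 insertion and quality-control genes PHB2, a prohibitin, rose (0.71). For comparison 10 of 77 cytosolic ribosomal protein genes rose and 5 fell (13.0% and 6.49%, median 0.28), and 2 of 76 nuclear respiratory chain genes rose and 8 fell (2.63% and 10.53%, median -0.02). All 4 shares lie below those of all genes. Of the 5544 genes at 5 FPKM or more in every library, 12.5% rose and 7.79% fell. The cytosolic genes that rose (13.0%) and the respiratory chain genes that fell (10.53%) lie above those shares, and the other shares lie below.

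The 5 genes outside the set named here had profiles most like the mean of the 76 over the 6 libraries, by Pearson r among 5472 genes: CCZ1 (0.998), ECE2 (0.996), TMEM5 (0.994), RPL7L1 (0.989) and INIP (0.989). The 6 points share their libraries and the split between WT-labelled and resistant, so r describes these libraries alone.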

How the data were processed

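Polyadenylated RNA of 6 cell-line libraries was sequenced with a directional mRNA kit, per the labels' protocols. Per the submitters' processing notes the authors used bcl2fastq, cutadapt, TopHat2, Cufflinks and hg19, with no versions named. The deposited tables give FPKM for 43490 RefSeq isoforms in each library; counts were not used here, so the sampling error of a value is unknown. The deposited coverage signal served only to estimate relative depth, and the deposited FPKM bounds were not used.

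FPKM were summed over isoforms per gene (10 genes with a failed estimate and 528 isoforms without a name were left out), and 12337 genes at 1 FPKM or more in at least 1 library were kept. Differences are of log2(FPKM + 1), with a pseudocount of 1, which understates changes of low genes. limma 3.58.1 (R 4.3.3) with trend fitted state and line over 6 libraries, and drug and line over the 4 resistant ones. It was tested on simulated data with 2 kinds of spread. The 6-library fit recovered 0% and 5% of genes changed by 1 between resistant and WT, and 0% and 3% between drugs. Between drugs a lack of calls at that size therefore says little. The simulation changed 100 genes by 1 and 100 by 3, whereas the resistant contrast called 27.3% of all genes. There genes with smaller differences passed, such as MRPL3 (0.57), so the simulated share does not carry over to that contrast. What share of genes changed by 1 it misses was not tested. Each group is 1 library, so p-values measure only how far lines or drugs disagree. Genes were named by size of difference, by passing limma, by highest and lowest level and by nearness to a threshold. The genes, lists and tests were chosen with earlier results of these data known. Alternatives were other pseudocounts, filters, scalings, thresholds, blocks and libraries left out. A gene of the comparison lists is not reported here.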

Additional observations from a re-analysis of the deposited data

How the results depend on the processing

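Members differing by 1 or more numbered 6 in DOHH2 idelalisib with a pseudocount of 0.1, 2 in each DAUDI comparison with a pseudocount of 5, 2 in DAUDI ibrutinib with median of ratios scaling, and 1 between the DAUDI drugs with upper quartile scaling. At a threshold of 0.5 they numbered 26 and 27 in DAUDI, 30 and 26 in DOHH2 (idelalisib, ibrutinib) and 6 between the DAUDI drugs, while 56.4%, 60.2%, 56.3%, 55.2% and 16.8% of all genes passed. The median reversed to -0.0601 in DAUDI ibrutinib (median of ratios), and between the libraries labelled WT to 0.0132 (median of ratios) and 0.0410 (upper quartile). Calls of resistant against labelled WT numbered 7 with no trend, 7 with no replicate block for line, 29 with 1 mean per line and resistance (38.2% of the 76, against 53.5% of all genes), and 0 to 7 with a library left out. Calls between resistant lines numbered 0 with no filter on low values and 13 with no replicate block for drug (17.1%, against 27.3% of all genes). Where no value above shows it, the cause was not tested. Leaving a library out of the 4-library fit was not run, since no residual degree of freedom remains. The line term pairs libraries by the line on their label, although the libraries labelled WT did not group with their own lines. Whether the 2 libraries labelled WT are independent replicates is not known. The labels give no replicate numbers that would pair libraries further. MRPL48, MRPS33, MRPL45, MRPS15 and MRPL44 passed under every setting of the 6-library fit that kept all libraries.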
